A study of Homo sapiens with 6 samples.

Results

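The chromatin around 6 classical target genes of YAP and TEAD was examined by ATAC-seq in H1155 cells: CCN1, CCN2, ANKRD1, AMOTL2, LATS2 and AJUBA. For each gene a window was taken that held the gene and 50 kb on either side in the hg19 build. Every deposited peak that overlapped a window was used, with no choice by its values. Overlapping peaks from different libraries (1 bp or more in common) were joined into regions, which gave 63 in the 6 windows out of 149765 in the whole genome. AJUBA had 14 regions, AMOTL2 and CCN1 had 13 each, LATS2 had 11, CCN2 had 9 and ANKRD1 had 3.

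ATAC-seq uses a transposase that inserts sequencing adapters into open chromatin, so a peak marks a site that was accessible in the cells. H1155 is a human lung carcinoma line. The 3 chimera libraries (titled TA) came from H1155 cells that expressed a chimera, and the 3 control libraries from H1155 cells whose genotype is given only as control. The labels call the replicates biological. They do not say what the chimera is, how it was delivered, what the control cells carried or whether the cells were a clone. Setting the groups side by side asks whether the chromatin at these genes differed with the chimera. In a bulk library a site open in fewer cells and a site less open in each cell cannot be told apart.

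YAP and its paralogue TAZ are coactivators of the Hippo pathway that have no DNA-binding domain and reach DNA through the TEAD factors. The kinases LATS1 and LATS2 phosphorylate YAP and keep it out of the nucleus. YAP and TEAD in turn activate genes that feed back on the pathway, LATS2 and AMOTL2 among them. CCN1 and CCN2 encode secreted matricellular proteins, earlier called CYR61 and CTGF, and are common readouts of YAP activity. ANKRD1 encodes an ankyrin repeat protein of the nucleus and the sarcomere and is another such readout. AMOTL2 encodes an angiomotin family protein that binds YAP at the membrane, and AJUBA encodes a LIM domain protein that binds LATS kinases. TEAD factors bind the sequence GGAATG.

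The promoters of these genes show where such sequences lie. RefSeq promoter entries of the build GRCh38.p14, each running from 250 bases before to 50 bases after a transcript start, matched 5 of the 6 genes with 7 entries, all of them on the minus strand and written 5′ to 3′ along the gene. The 4 entries below carry GGAATG or its reverse complement CATTCC, which is in capitals. Of these genes, CCN2, LATS2 and AMOTL2 had an open region at their start and ANKRD1 had none. AJUBA also had an open region at its start. Its outer entry and the outer AMOTL2 entry hold neither sequence and are not shown, nor is the inner AJUBA entry.
CCN2 promoter: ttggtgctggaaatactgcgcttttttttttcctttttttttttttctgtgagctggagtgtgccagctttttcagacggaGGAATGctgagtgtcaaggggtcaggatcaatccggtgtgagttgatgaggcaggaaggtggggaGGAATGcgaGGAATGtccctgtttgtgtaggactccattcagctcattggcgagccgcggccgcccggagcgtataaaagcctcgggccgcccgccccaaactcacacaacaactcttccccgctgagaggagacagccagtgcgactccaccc
LATS2 promoter: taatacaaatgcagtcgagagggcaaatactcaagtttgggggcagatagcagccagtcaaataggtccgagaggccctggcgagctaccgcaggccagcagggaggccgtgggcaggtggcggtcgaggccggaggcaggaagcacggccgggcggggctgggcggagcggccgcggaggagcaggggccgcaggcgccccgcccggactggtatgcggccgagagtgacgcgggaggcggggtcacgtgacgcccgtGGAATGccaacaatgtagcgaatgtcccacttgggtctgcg
AMOTL2 inner promoter: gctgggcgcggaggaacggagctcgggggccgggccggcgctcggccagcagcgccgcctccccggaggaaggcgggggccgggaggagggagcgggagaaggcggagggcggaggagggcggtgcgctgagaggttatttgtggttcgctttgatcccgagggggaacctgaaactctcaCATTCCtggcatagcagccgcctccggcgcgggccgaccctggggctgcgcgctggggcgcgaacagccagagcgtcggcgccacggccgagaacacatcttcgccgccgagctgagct
ANKRD1 promoter: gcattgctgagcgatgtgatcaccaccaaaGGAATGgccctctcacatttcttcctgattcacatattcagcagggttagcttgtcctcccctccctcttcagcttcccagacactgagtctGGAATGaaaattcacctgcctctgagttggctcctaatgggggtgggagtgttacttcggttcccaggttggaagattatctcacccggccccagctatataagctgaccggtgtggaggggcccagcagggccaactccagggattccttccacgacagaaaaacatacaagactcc

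CCN2 held 3 copies of GGAATG, and 0.128% of the 35116 promoter entries of the table held 3 or more. The copies ended 164, 99 and 90 bases before the transcript start. ANKRD1 held 2 copies, ending 215 and 123 bases before its start, and 1.37% of entries held 2 or more. LATS2 held 1 copy just downstream of its start, and the inner AMOTL2 entry, whose start lay 1.0 kb downstream of the outer one, held 1 copy in the reverse orientation. An inner AJUBA entry, 5.7 kb downstream of the outer AJUBA start, also held 1 copy. The outer entries of AJUBA and AMOTL2 held none, and 14.0% of all entries held at least 1. The pattern TGANTCA, used here for AP-1 with any base at N, reads the same on both strands. It occurred once, as TGATTCA in the ANKRD1 promoter, where it overlapped neither copy of GGAATG. It was found in 7.71% of all entries. The CArG box, the site of serum response factor, was found in none of the 7 entries and in 1.29% of all entries. These matches are letters in a window and do not show binding.

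The positions of the deposited lists fitted hg19 at these genes. A peak lay within 1 kb of the gene start given by the window for 5 of the 6 genes, and within 1 kb of the GRCh38 start for 0 of 6, although the submitters' processing notes name GRCh38. In all 6 lists the last peak on chromosome 1 lay beyond the last gene of that chromosome in the GRCh38.p14 table. The window bounds are rounded to 1 kb, so a gene start is known here to about 1 kb, and a distance below that does not place a peak inside or outside a promoter. Positions below are those of the deposited lists, counted from 1. By gene order in GRCh38, the coding neighbours within 50 kb were DDAH1 beside CCN1, RPP30 beside ANKRD1, and PRMT5, HAUS4, C14orf93 and PSMB5 beside AJUBA, and there were none beside CCN2, AMOTL2 and LATS2. A region in a window need not belong to the named gene.

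Each list held 85730 to 109321 peaks on chromosomes 1 to 22 and X, and each peak carries the authors' fold, the ratio of the read pileup at its summit to the local background of its own library. A fold therefore describes a peak within its own list. The summit pileup recovered from the fold and the −log10 p was at least 9 to 12 reads at the weakest peak of each list. A site without a peak was below that library's threshold and has no value.

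**Figure D1:**
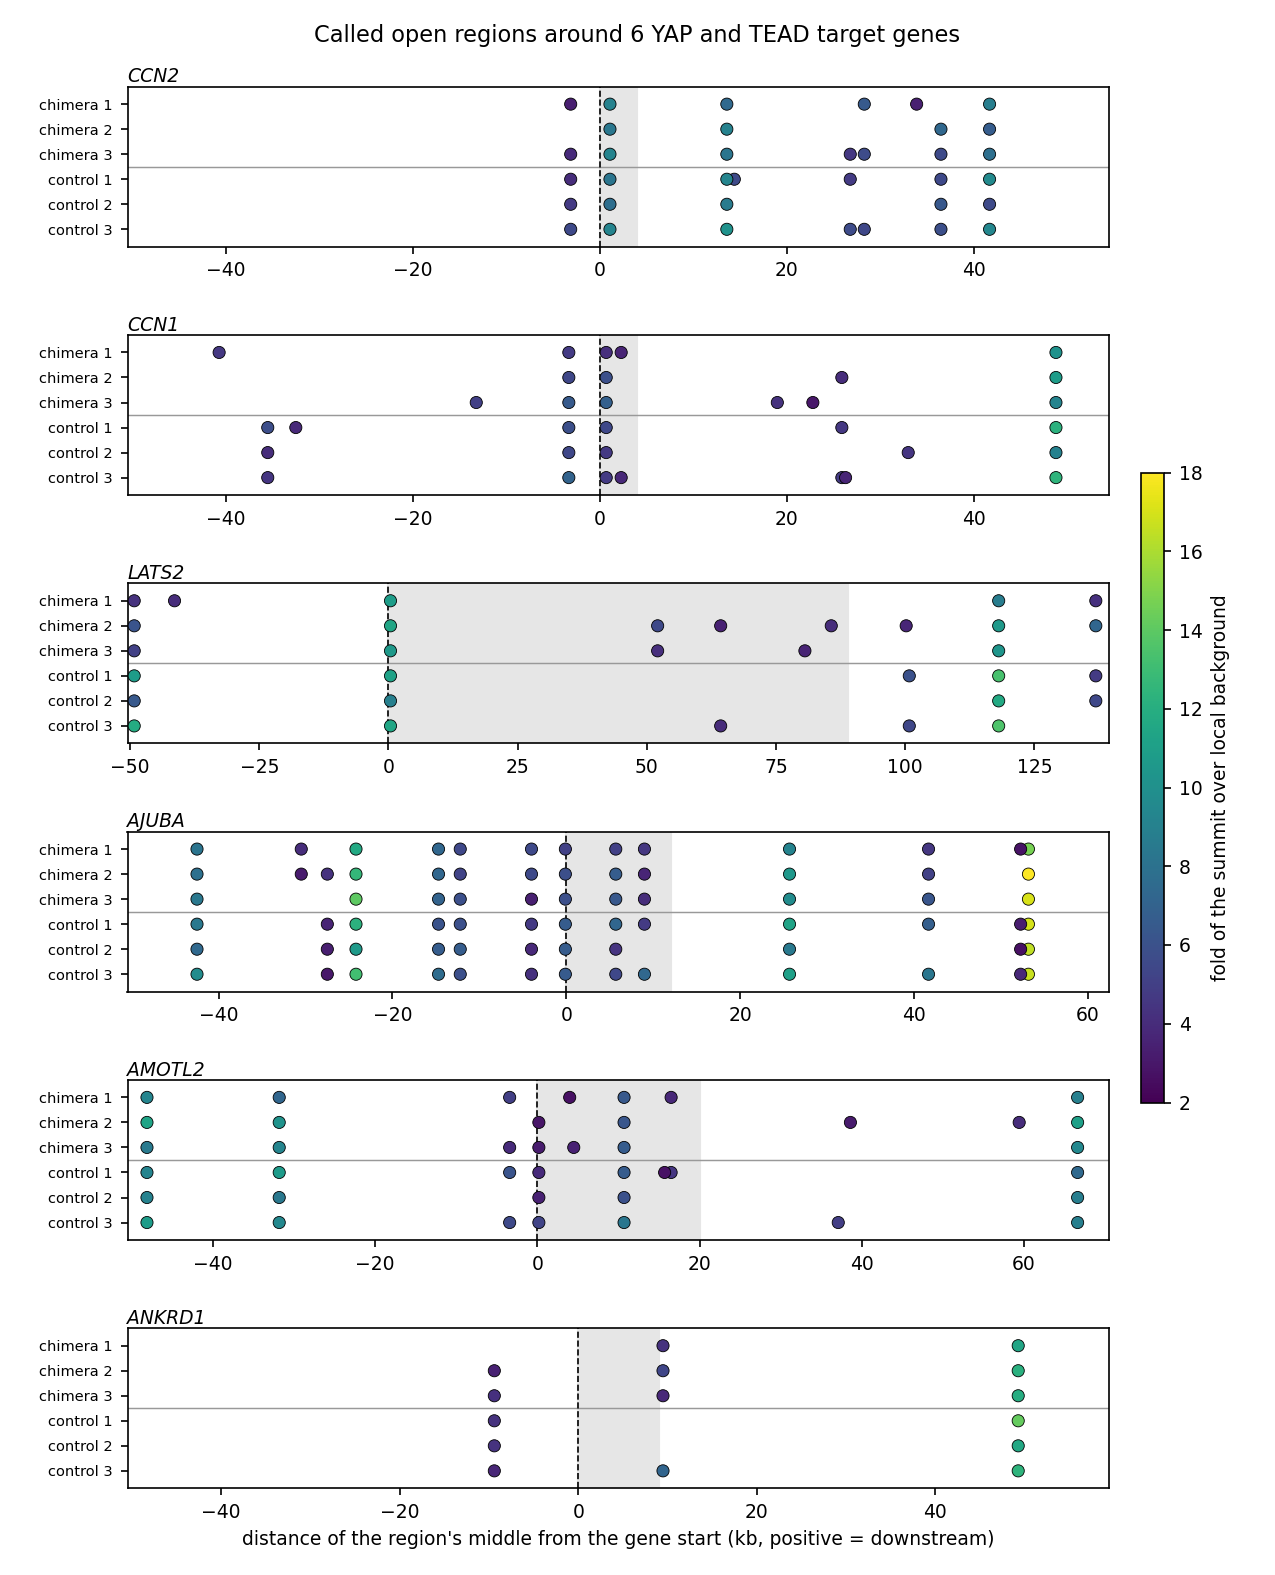
Called regions in the 6 windows, with 1 panel per gene and 1 row per library (chimera libraries above control libraries). The x axis gives the distance in kb from the gene start to the middle of the region, with the transcribed direction to the right and the gene in grey, and the colour gives the authors' fold of the strongest peak. Columns of 6 points are the 23 regions called in all libraries, and ANKRD1 has no point at its start.

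The number of peaks in the 6 windows did not differ between chimera and control cells beyond the spread of the libraries. The windows held 43, 43 and 43 peaks in the chimera libraries and 47, 34 and 46 peaks in the control libraries. The means were 43.0 ± 0 and 42.3 ± 7.23 peaks (SD, n = 3 each), with the chimera libraries inside the range of the control libraries and control 2, which also had the shortest list, the lowest (exact permutation test, two-sided, p = 1.0, where 3 libraries against 3 cannot give a p below 0.1). Peaks covered 22.8 ± 1.09 kb of the windows in chimera and 23.2 ± 3.81 kb in control libraries (SD, n = 3 each, exact permutation p = 1.0). Of the 63 regions, 23 were called in all 6 libraries (36.5%, against 37.8% of all merged regions). Another 19 were called in 1 library alone, 13 of them in a chimera library and 6 in a control library. Over the genome 29.7% of regions were called in 1 library, 22818 in a chimera and 21626 in a control library, against 30.2% in the windows. The median width was 1045 bp for the regions called in all libraries and 342 bp for all 63. A region is the union of its peaks, so more calls widen it by construction.

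LATS2, the kinase gene, had the highest fold at its start of the 6 genes. Its region lay on chromosome 13 from 21635022 to 21636123 and overlapped the gene start. Chimera libraries 1, 2 and 3 had folds of 10.83, 11.39 and 10.59, and control libraries 1, 2 and 3 had folds of 11.20, 8.92 and 11.47. The groups overlapped in the deposited fold, and control 2 was the lowest of the 6. After centring, all 3 chimera libraries lay above all 3 control libraries, as in 9.5% of all regions called in all 6 libraries. The centred log2 difference, chimera minus control, was 0.17 (SE 0.12, 95% interval −0.07 to 0.41, limma adjusted p = 0.618). This difference comes from limma on the log2 fold of all 56679 regions called in all 6 libraries, centred on each library's median over them and adjusted over all of them.

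CCN2 came next. The region spanned 1651 bp on chromosome 6 from 132271030 to 132272680, and its nearer edge lay 0.3 kb downstream of the rounded gene start. The summit of its strongest peak lay 1.18 to 1.20 kb downstream of that rounded start in all 6 libraries. The fold was 9.07, 8.37 and 9.21 in the chimera libraries and 8.20, 7.71 and 9.19 in the control libraries. The groups overlapped, with a centred log2 difference of 0.20 (SE 0.14, 95% interval −0.10 to 0.50, limma adjusted p = 0.648). By fold it stood at the 73.5 to 86.9 percentile of the lists. The region was called as 2 peaks in chimera 3, control 1 and control 2, and as 1 peak in the other libraries. With the summit pileup in place of the fold the log2 difference was −0.0566, the opposite sign.

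The starts of AJUBA and CCN1 were of middle strength by fold. The AJUBA region, on chromosome 14 from 23451445 to 23452822, had a fold of 5.12, 5.85 and 5.90 in the chimera libraries and 6.62, 6.58 and 6.55 in the control libraries. These folds did not all come from one summit. The strongest summit lay at −0.66, −0.68, −0.66 and −0.64 kb from the rounded start in chimera 1, chimera 2, control 2 and control 3. In chimera 3 it lay at 0.14 kb and in control 1 at 0.11 kb. All 3 chimera libraries lay below all 3 control libraries in the deposited fold, but the groups overlapped after centring. After centring, the log2 difference was −0.12 (SE 0.17, 95% interval −0.48 to 0.23, limma adjusted p = 0.839). It was −0.0113 without control 2, −0.21 without control 3 and −0.23 with the summit pileup. The CCN1 region, on chromosome 1 from 86046240 to 86047254, had a fold of 4.18, 5.93 and 6.85 in the chimera libraries and 5.47, 4.63 and 4.77 in the control libraries. Chimera 1 was the lowest and chimera 3 the highest of the 6 libraries there. The centred log2 difference at CCN1 was 0.27 (SE 0.19, 95% interval −0.14 to 0.68, limma adjusted p = 0.641), and it was 0.10 without chimera 3 and 0.45 without chimera 1. Without centring the log2 differences were 0.063 at LATS2, 0.089 at CCN2, −0.23 at AJUBA and 0.16 at CCN1.

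AMOTL2 had a weak open region at its start, on chromosome 3 from 134093328 to 134094348, that was called in 5 of the 6 libraries. No peak was called in chimera 1. The fold was 2.91 in chimera 2 and 3.19 in chimera 3, against 3.92, 3.45 and 5.23 in control libraries 1, 2 and 3. The recovered summit pileup was 16 and 24 reads in these chimera libraries and 22, 20 and 38 reads in the control libraries. The called chimera libraries were lower than every control library in fold, and because chimera 1 has no value the region was not tested.

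ANKRD1 had no peak within 1 kb of its start in any library, so no opening at the start was detectable at this depth in either group. The nearest region lay 9.4 kb upstream, on chromosome 10 from 92690195 to 92690543. It had no peak in chimera 1, a fold of 3.48 in chimera 2 and 4.19 in chimera 3, and of 4.25, 4.32 and 3.70 in the control libraries. The promoters of ANKRD1 and CCN2 both hold more than 1 copy of GGAATG, as shown above, and of these genes only CCN2 had a peak at its start. Gene starts are known here to about 1 kb, so this does not place the CCN2 peak on those copies.

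**Figure D2:**
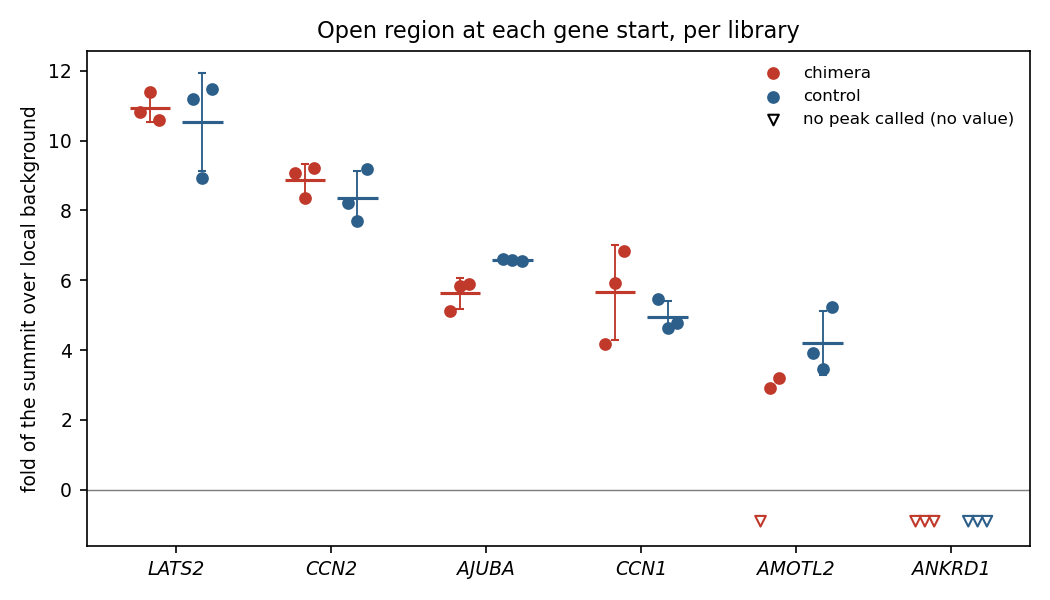
Fold of the strongest peak at the start of each gene, for the 3 chimera libraries (left of each pair) and the 3 control libraries, with the mean as a bar and the SD as an error bar where all 3 libraries of a group had a peak. Open triangles below the zero line stand for libraries with no called peak, which have no fold. LATS2 and CCN2 are the highest, AMOTL2 lacks a peak in chimera 1, and ANKRD1 has no peak in any of the 6.

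The order of the starts by fold was nearly the same in every library. LATS2 had a higher fold than CCN2 in 6 of 6 libraries, and CCN2 a higher fold than CCN1 and AJUBA in 6 of 6. CCN1 and AJUBA could not be ordered, since AJUBA was the higher in 4 libraries and CCN1 in 2. Over the 5 libraries with a peak at the AMOTL2 start, CCN1 exceeded AMOTL2 in 4 and AJUBA exceeded it in 5. These are ranks of folds within a library, and a fold depends on the local background as well as on the reads at the summit. By recovered summit pileup, CCN2 was above LATS2 in every library but chimera 2. The pileup at LATS2 was 64, 76 and 74 reads in chimera and 66, 47 and 77 reads in control libraries. At CCN2 it was 79, 70 and 104 reads in chimera and 83, 69 and 119 reads in control libraries.

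The region of each window with the highest lowest fold over the 6 libraries was the start at CCN2 and LATS2, and a distant region in the other 4 windows. The start did not lead in every library even at these genes. The region 13.6 kb downstream of the CCN2 start had a higher fold than the start in 4 of 6 libraries, 1 chimera and 3 control. The region 118.1 kb downstream of the LATS2 start had a higher fold than the start in 0 of 3 chimera and 3 of 3 control libraries. The distant region exceeded the start in 6 of 6 libraries at CCN1 and AJUBA, and at AMOTL2 in 5 of 5 libraries with a peak at both, while ANKRD1 had no peak at its start to compare. At CCN1 it lay 48.8 kb downstream of the start (chromosome 1 from 86094155 to 86095379), with folds of 10.13, 10.80 and 9.24 in chimera and 12.24, 8.97 and 12.42 in control libraries. At AJUBA it lay 53.2 kb downstream (chromosome 14 from 23398231 to 23399275), with folds of 14.70, 17.96 and 17.04 in chimera and 16.97, 16.49 and 16.67 in control libraries. At AMOTL2 it lay 48.1 kb upstream (chromosome 3 from 134141676 to 134142560), with folds of 9.27, 11.35 and 8.56 in chimera and 9.22, 9.05 and 10.80 in control libraries. At ANKRD1 it lay 49.3 kb downstream (chromosome 10 from 92630995 to 92632413), with folds of 11.43, 12.18 and 11.89 in chimera and 14.22, 11.62 and 12.37 in control libraries. In each of these 4 regions the deposited folds of the groups overlapped. The centred log2 differences were −0.036 at CCN1, 0.090 at AJUBA, 0.11 at AMOTL2 and 0.0063 at ANKRD1. Without centring those at AJUBA, AMOTL2 and ANKRD1 were below 0. By gene order in GRCh38, other coding genes lie within 50 kb of CCN1, AJUBA and ANKRD1, PRMT5 and RPP30 among them. Whether these distant regions belong to such neighbours was not tested.

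Further regions near the genes were open in every library. CCN1 had one 3.3 kb upstream of its start, with folds of 4.81, 5.38 and 6.48 in chimera and 5.82, 5.40 and 7.04 in control libraries. By gene order in GRCh38 the coding gene DDAH1 lies within 50 kb of CCN1, and whether this region belongs to DDAH1 was not tested. CCN2 had one 13.6 kb downstream of its start, with folds of 7.41, 9.07 and 8.23 in chimera and 9.26, 8.61 and 10.07 in control libraries. AMOTL2 had one 10.7 kb downstream of its start, within the gene, with folds of 6.43, 6.25 and 6.57 in chimera and 6.61, 5.97 and 8.26 in control libraries. AJUBA had one 5.7 kb downstream of its start, the distance at which RefSeq places its inner start. Its folds were 5.04, 6.63 and 6.32 in chimera and 7.24, 4.38 and 5.48 in control libraries.

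Presence of a peak rarely separated the groups. No region was gained, meaning called in 3 of 3 chimera and 0 of 3 control libraries, where 0.621% of all merged regions had that pattern. One region, 1.59% of the 63, was lost, meaning called in 3 of 3 control and 0 of 3 chimera libraries, where 0.799% of all merged regions were. It lay 35.5 kb upstream of the CCN1 start, on chromosome 1 from 86010290 to 86010631. It had no peak in the chimera libraries and folds of 5.77, 4.06 and 4.45 in the control libraries. These were weak peaks, with a summit pileup of 20, 15 and 17 reads and a −log10 q of 9.7, 4.9 and 6.3, and the region was no longer lost when peaks with a −log10 q under 5 were left out. A single region cannot pass a test of presence, since Fisher's exact test of 3 libraries against 3 cannot give a p below 0.1.

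Under a looser rule, called in 3 of 3 libraries of one group and in at most 1 of the other, 1 region leaned to chimera (1.59%, against 2.07% of all merged regions) and 3 leaned to control, the lost one included (4.76%, against 2.51%). The first lay 9.5 kb downstream of the ANKRD1 start, on chromosome 10 from 92671339 to 92671676. Its fold was 4.28, 5.35 and 3.77 in the chimera libraries, and 7.16 in control 3, with no peak in control 1 and control 2. The only control library with this peak had the highest fold of all. The others that leaned to control lay in the AJUBA window. One was 27.5 kb upstream of the start, with a fold of 4.25 in chimera 2 and of 3.60, 3.34 and 3.00 in the control libraries. The other was 52.3 kb downstream, beside the strongest AJUBA region, with a fold of 2.80 in chimera 1 and of 3.30, 2.66 and 3.79 in the control libraries.

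None of the 23 regions called in all 6 libraries passed the test of fold. The counts were 0 higher and 0 lower in chimera at a limma adjusted p of at most 0.05, where 0.00706% of the 56679 such regions of the genome were higher and 0.00353% were lower. At an unadjusted p under 0.05 there were 3 of 23 in the windows (13.0%), against 11.3% over the genome. The median log2 difference was 0.052 in the windows and 0.025 over the genome, and 16 of the 23 were positive and 7 negative, against 31176 positive and 25503 negative over the genome. Without centring the medians were −0.0556 in the windows and −0.0827 over the genome, a shift of all regions. The deposited folds of the groups did not overlap in 1 region higher in chimera and in 4 lower in chimera, against 2.63% and 10.1% of all regions called in all 6 libraries. After centring these counts were 2 higher and 2 lower, against 9.5% and 6.99%. The higher ones were the LATS2 start and 1 region of the AJUBA window, and both lower ones lay in the LATS2 window.

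The largest difference in any window was at the region 49.2 kb upstream of the LATS2 start, on chromosome 13 from 21684941 to 21685419. Its fold was 4.28, 6.15 and 5.12 in the chimera libraries and 10.75, 6.43 and 11.82 in the control libraries. The groups did not overlap, although chimera 2 and control 2 lay close together and the control libraries spread widely. The recovered summit pileup was 17, 22 and 24 reads in chimera and 37, 26 and 47 reads in control libraries, while the local background was 3.21, 2.74 and 3.88 reads in chimera and 2.53, 3.20 and 3.06 reads in control libraries. The centred log2 difference was −0.76 (SE 0.18, 95% interval −1.13 to −0.39). It did not pass the adjustment over all regions (limma adjusted p = 0.114, and 0.0712 to 0.337 over the alternatives).

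The second region of the LATS2 window with an unadjusted p under 0.05 lay 118.1 kb downstream of the start, beyond the end of the gene, on chromosome 13 from 21517591 to 21518281. Its fold was 8.72, 10.57 and 10.37 in the chimera libraries and 13.37, 11.64 and 13.52 in the control libraries, with no overlap. The centred log2 difference was −0.27 (SE 0.12, limma adjusted p = 0.394). In the deposited fold, the other regions with separate and lower chimera folds were the AJUBA start and a region 12.2 kb upstream of it. After centring the groups overlapped at both. At the upstream region folds were 5.48, 5.21 and 5.91 in chimera and 5.92, 6.63 and 5.92 in control libraries. At that region the gap between the groups was smaller than the spread within either. Only 1 region had deposited chimera folds that all lay above the deposited control folds. It was 66.6 kb downstream of the AMOTL2 start, on chromosome 3 from 134027204 to 134027584. Its fold was 8.89, 11.04 and 9.45 in the chimera libraries and 7.42, 8.76 and 8.87 in the control libraries, and chimera 1 and control 3 were almost equal. After centring the groups overlapped at this region. The centred log2 difference was 0.34 (SE 0.15, 95% interval 0.014 to 0.66, limma adjusted p = 0.421), and it was 0.21 without control 1 and 0.49 without control 2. The region of the AJUBA window with the largest difference lay 4.0 kb upstream of its start, on chromosome 14 from 23455825 to 23456138. Its fold was 5.56, 5.53 and 3.42 in the chimera libraries and 4.68, 3.85 and 4.21 in the control libraries. Chimera 3 was the lowest of the 6 there and the other chimera libraries were the highest, with a centred log2 difference of 0.27 (limma adjusted p = 0.654), which was 0.13 without chimera 1 and 0.48 without chimera 3. A p that misses the threshold does not show that the groups were alike, and the intervals above give the differences that these libraries allow.

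**Figure D3:**
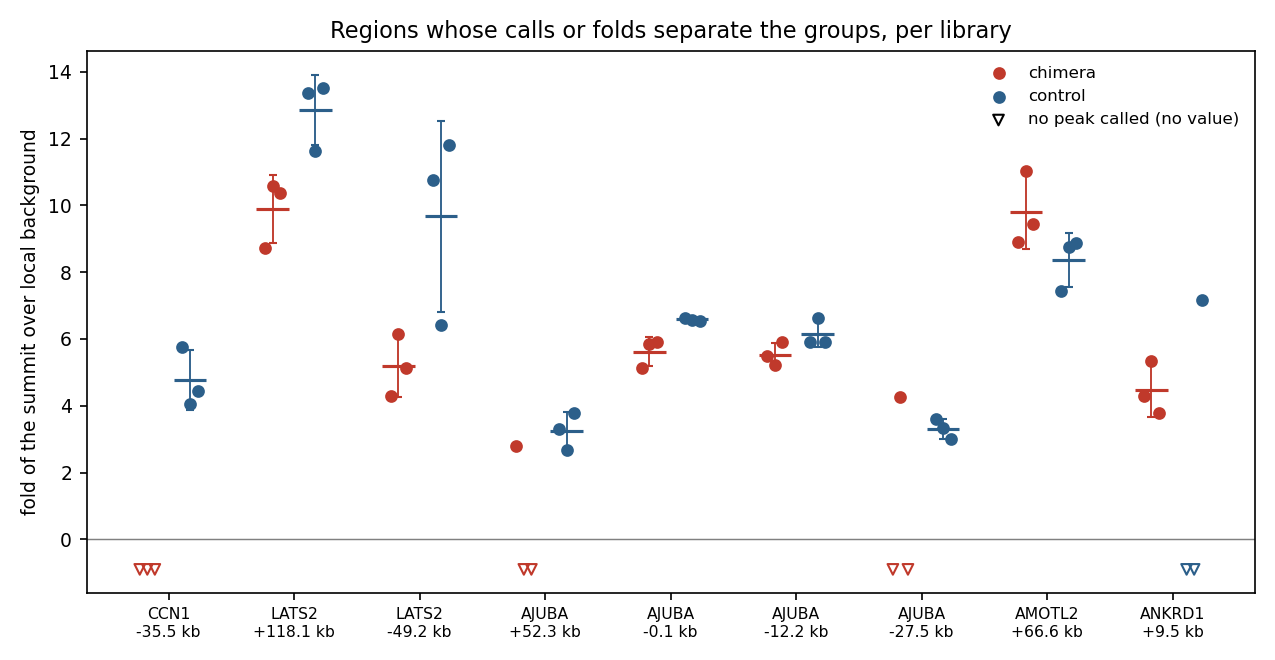
Fold per library for the regions called in 3 of 3 libraries of one group and at most 1 of the other, and for those called in all 6 whose deposited folds do not overlap. Chimera libraries are left of control libraries, bars and error bars are mean and SD where all 3 libraries of a group had a peak, and open triangles are libraries with no peak. The region 49.2 kb upstream of LATS2 ranges from 4.28 to 6.15 in chimera and from 6.43 to 11.82 in control libraries.

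**Figure D4:**
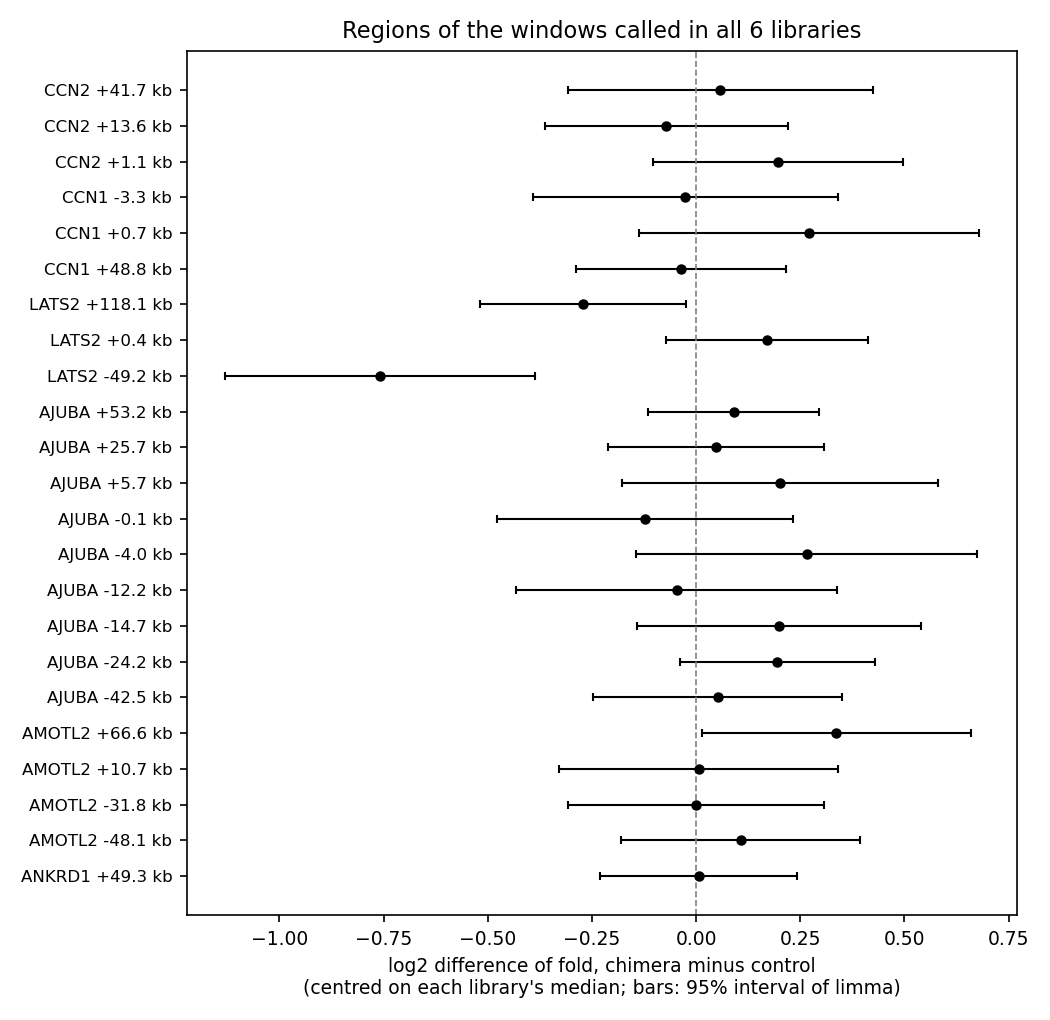
Centred log2 difference of fold, chimera minus control, for the 23 regions of the windows called in all 6 libraries, with the 95% interval of limma and each region named by gene and distance from its start. The points run from −0.76 at the region 49.2 kb upstream of LATS2 to 0.34 at the region 66.6 kb downstream of AMOTL2, and none passes after adjustment over all regions.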

How the data were processed

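Omni-ATAC libraries of 3 chimera and 3 control biological replicates of H1155 were each deposited with 1 MACS2 narrowPeak list, so peaks were called per library. From these deposited lists the fold ratio (column 7), the −log10 p and the −log10 q were used; the deposited score was not. For the aligner, the MACS2 settings, read filters and any shift for the transposase, details were not given in the sources used here. HOMER 4.9 and GRCh38 appear in the submitters' processing notes, with no role stated. Total reads are unknown.

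The windows came from the definition of the gene set. The members, lists and tests were chosen with earlier results of these data known. Merging needed 1 bp of overlap; in a region with several peaks of a library the highest fold was used. Chromosome Y was left out. Summit pileups were recovered from fold and −log10 p by the Poisson model (tolerance 0.005; 99.9% of peaks or more). limma 3.58.1 (R 4.3.3) was fitted with a trend on the mean and without a replicate term. It was also run on simulated data with spreads shuffled across regions, which cannot test the trend. The simulated shifts were larger than any difference in the windows, so that run does not bear on differences of the size seen here. A fold is relative to local background, so a difference can come from the summit or from that background. Benjamini-Hochberg adjustment was used throughout. Regions named were those at each start, those called in 3 libraries of one group and at most 1 of the other, and per window the one with the highest lowest fold and the most different; the regions 12.2 kb upstream of AJUBA, 118.1 kb downstream of LATS2, 3.3 kb upstream of CCN1, 13.6 kb downstream of CCN2, 10.7 kb downstream of AMOTL2 and 5.7 kb downstream of AJUBA were chosen after their values were seen. A list of further YAP target genes was not run, for want of an annotation of the files' build.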

Additional observations from a re-analysis of the deposited data

How the results depend on the processing

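No region of the windows passed the test of fold in any alternative run, which changed the merging, the overlap, the least −log10 q, the flanks, the centring, the trend, the measure, the block or the libraries. The difference in peaks per library, 0.667 with all peaks, was 0 for regions that a peak covers by 50%, −1.67 and −4 with a −log10 q of at least 5 and 10, and −3.5 to 3 without 1 library, lowest without control 2. Lost regions numbered 0 at either −log10 q limit and with 10 kb flanks (24 regions, 9 in all libraries), and 1 to 2 without 1 library (2 without chimera 1, chimera 2, control 2 or control 3). Gained regions numbered 0 to 1 without 1 library (1 without chimera 1, chimera 3 or control 3). Among the named log2 differences, signs turned at 5 regions. Without centring they were −0.0178 at AJUBA +53.2 kb, −0.000972 at AMOTL2 −48.1 kb and −0.10 at ANKRD1 +49.3 kb. With the summit pileup they were −0.23 at ANKRD1 +49.3 kb and −0.0566 at the CCN2 start. Without 1 library they ranged from −0.0910 to 0.0547 at ANKRD1 +49.3 kb and from −0.0768 to 0.00858 at CCN1 +48.8 kb. For none of these was the cause tested.

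Shared replicate numbers were not treated as a pairing. Same-numbered deviations correlated at −0.00547, −0.0592 and −0.0145, and 0 of 6 libraries correlated best with their own number. With 3 libraries per group these values cannot exclude that same-numbered libraries were prepared together. With the replicate block the windows still held 0 higher and 0 lower regions, 0 gained and 1 lost, and the peak difference of 0.667 had p = 1.0 (exact sign flips, 0.25 at least), while calls over the genome were 32 higher and 40 lower, against 4 and 2 without it. Over the genome the summit pileup gave 721 higher and 653 lower regions, and no centring or no trend gave 0 and 0. The lists give no reads where no peak was called, so a weak site can miss a call at this depth.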
